A study of Mus musculus with 7 samples.

Results

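The genes described here encode the ATPases and accessory subunits of chromatin remodeling complexes, together with related bromodomain, ARID and methyl-CpG-binding proteins. They were taken by symbol from a gene expression time course of CCE cells, a mouse embryonic stem (ES) cell line: every symbol that began with Smarc, Arid, Chd, Ino80, Baz, Bptf, Brd, Actl6, Dpf, Mbd, Mta or Gatad2, with a number where the family is numbered. The rule found 63 of the 12071 gene symbols of the table. Each symbol was represented by its transcript with the highest mean log2 read value over the 7 libraries, not divided by length. On day 0 the cells were grown without feeders on gelatin in serum medium with leukemia inhibitory factor (LIF) and received the solvent DMSO. From day 1 to day 6, LIF was withdrawn and retinoic acid, a nuclear receptor ligand that drives ES cells to differentiate, was present at 5 µM. Total RNA depleted of ribosomal RNA was sequenced from 1 library per day, 7 in all. All libraries come from the same line, and it is not stated if each day was a culture of its own. The p-values below therefore measure the scatter of 6 libraries about a line, not the spread between cultures.

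Chromatin remodelers use ATP to slide, evict or exchange nucleosomes, and most work as large complexes whose positions can be filled by alternative paralogs. The BAF (SWI/SNF) complex of ES cells is known to be built around the ATPase Smarca4 with Smarcc1, Smarcd1 and Actl6a, whereas differentiated cells also use Smarca2 and Smarcc2, and neurons use Actl6b and other Dpf subunits. The NuRD complex couples a CHD ATPase to histone deacetylases, ISWI complexes space nucleosomes, and INO80 exchanges histone variants and takes part in DNA repair.

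Values are given as the log2 of reads per RefSeq transcript: whole read counts multiplied by 1 factor per library and not divided by length. A difference of 1 is a 2-fold difference. Summed over all listed transcripts, the reads ran from 7194325 (day 6) to 17923852 (day 4). A read shared by transcripts of a gene can enter these sums more than once. Over the 63 remodeler genes, with 1 transcript each, the sums ran from 16257 (day 6) to 127457 (day 4). The 7 ES cell markers were all lower on day 5 than on day 0, and their summed log2 level went from 16.05 to 11.08. The summed level of 7 extraembryonic endoderm markers went from 9.45 to 14.16, with 6 of 7 higher, that of 6 fibroblast markers from 9.75 to 14.22, with 5 of 6 higher, and that of 5 neural markers from 11.16 to 11.84, with 4 of 5 higher. Each listed transcript held at least 1 read in every library. In these bulk libraries, more cells of a type and more RNA per cell cannot be told apart, and the part of the cell types in the changes below was not tested. The day 6 library stood apart in that its values went with transcript length, so days 0 to 5 are described first and day 6 by itself.

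Over days 0 to 5 the remodeler genes moved in both directions, with a few large rises and a larger number of smaller falls. The 55 genes whose mean lay above the expression filter (a log2 mean of 8.40, the 40th percentile of all genes) were tested for a straight line on day with limma. Of these, 9 rose (16.4%), against 25.7% of all 7242 genes tested, and 13 fell (23.6%), against 26.8% of all genes. The other 33 did not pass an adjusted p of 0.05. The median slope of the 55 was -0.033 log2 units per day, and that of all genes was -0.0012. Both shares were below those of the whole table on the values as deposited. The risers were Chd3, Smarca2, Smarcc2, Mbd2, Baz2b, Arid1b, Arid4b, Mbd6 and Chd1, in order of slope. The 13 that fell were Arid3b, Actl6a, Ino80e, Ino80, Mbd3, Smarcad1, Smarcd1, Mta3, Baz2a, Smarcb1, Gatad2a, Smarcc1 and Arid1a. Remodeler transcripts are long, with a median of 5218 nt against 3043.5 nt for all genes tested, and slope went weakly with length (Spearman rho 0.23 over 7242 genes and 0.21 over the 55, as descriptions). When the trend with length was removed from each library, 8 rose (14.5%, against 25.5% of all genes) and 20 fell (36.4%, against 26.4%), so that the falling share then lay above that of the whole table. The rising share of the calls was 28.6% in place of 40.9%, mainly through the added fallers, since Chd1 was the 1 riser lost. Leaving out each library of days 0 to 5 in turn left calls of 5 to 12 risers and 7 to 13 fallers. The lowest counts came without day 0 (5 and 8) and without day 4 (5 and 7). Over all genes the counts, 1858 and 1943 with all 6 libraries, were lowest without the same days. They were 1038 and 1281 without day 0 and 1128 and 1240 without day 4. Chd3, Mbd2, Smarca2 and Smarcc2 among the risers and Actl6a, Arid3b, Ino80e, Mbd3, Smarcad1 and Smarcd1 among the fallers stayed under 0.05 whichever of the 6 libraries was left out.

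**Figure D1:**
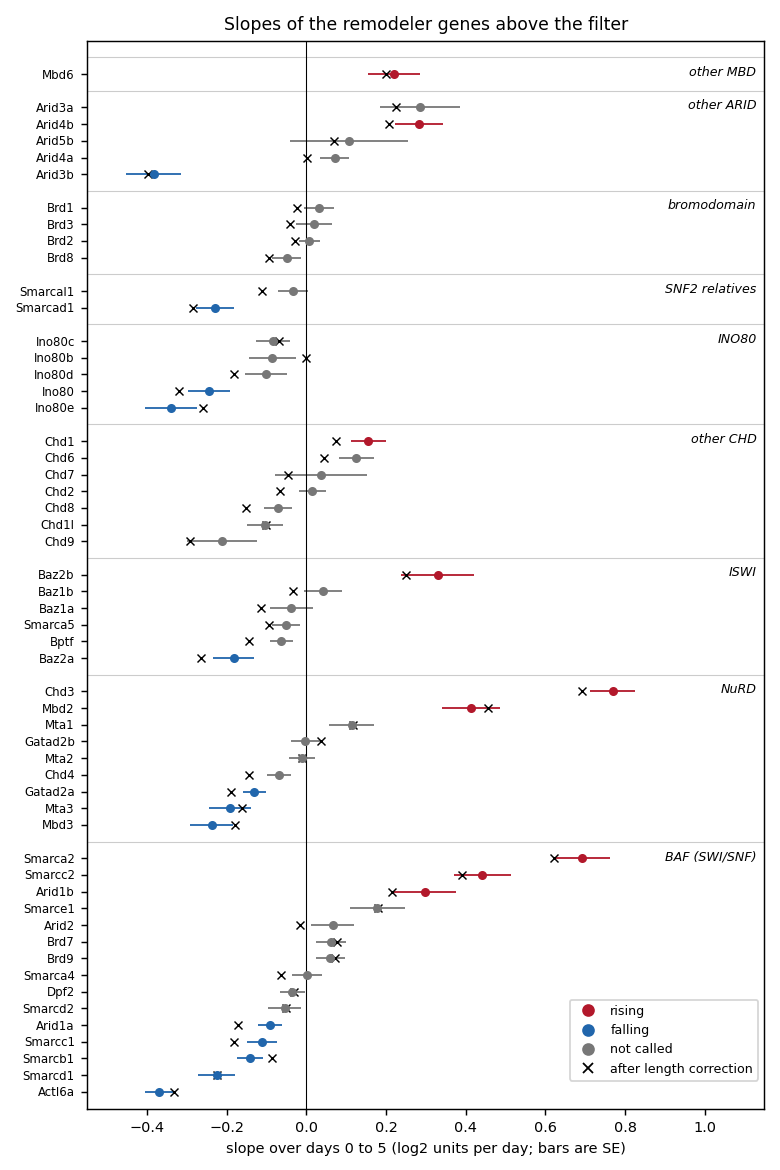
Slope of 54 of the 55 remodeler genes above the expression filter over days 0 to 5, in log2 units per day (points) with standard errors (bars, n = 6 libraries), grouped by complex and coloured by call, and crosses after removal of the trend with transcript length. Chd3 at 0.77 and Smarca2 at 0.69 lie farthest to the right, and Arid3b at -0.38 and Actl6a at -0.37 farthest to the left.

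Set against day 0 by size alone, 9 of the 55 genes were at least 2-fold higher on day 5 (16.4%, against 20.9% of all genes) and 5 were at least 2-fold lower (9.09%, against 14.1%). Arid3a was the 1 gene among those 9 that was not called as a riser, and the called riser Chd1 stayed under 2-fold. The genes at least 2-fold lower were Actl6a, Arid3b, Ino80, Ino80e and Smarcad1. The median difference between day 5 and day 0 was -0.073 for the remodeler genes and 0.039 for all genes.

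**Figure D2:**
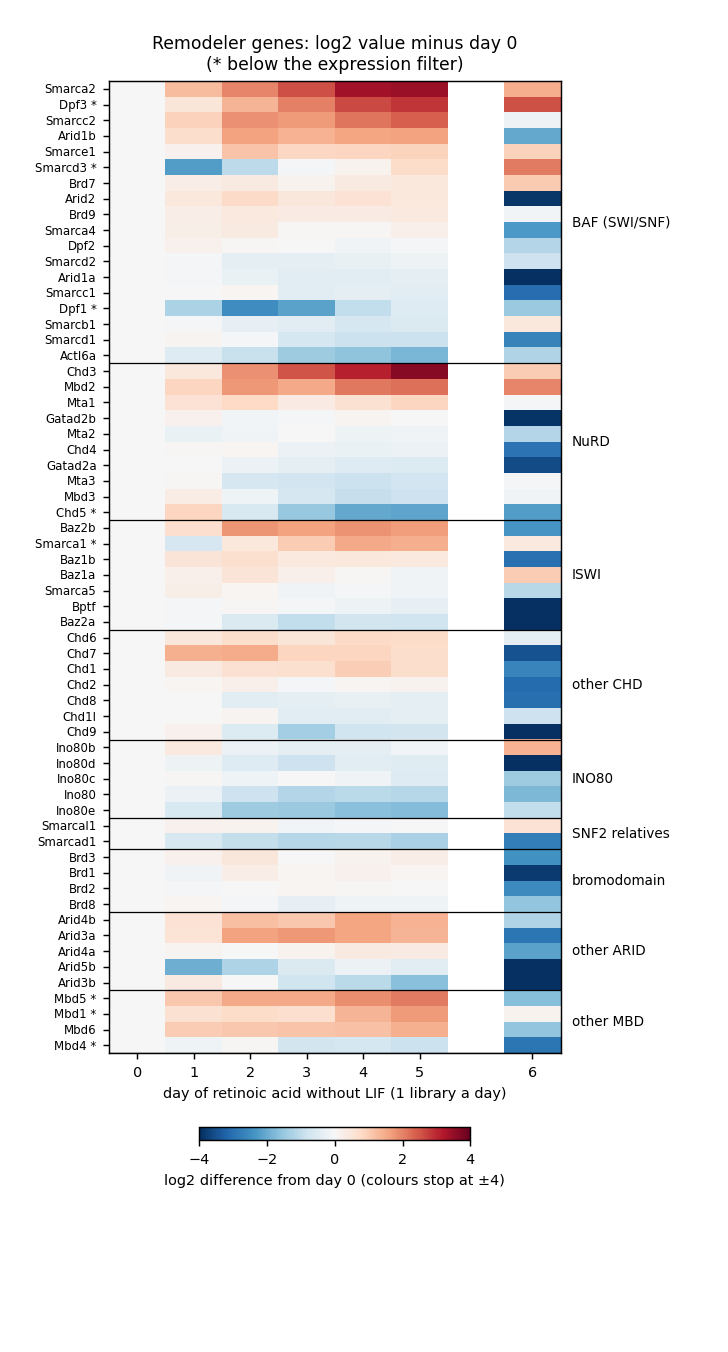
Log2 read value minus that of day 0 for 62 of the 63 remodeler genes (rows, grouped by complex and sorted by day 5) on each day (columns, 1 library each), with day 6 set apart and colours that stop at 4. Chd3, Smarca2 and the thinly covered Dpf3 are the darkest red on day 5, and most rows turn blue on day 6.

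In the BAF complex, 3 of 15 tested subunits rose (20%, against 25.7% of all genes) and 5 fell (33.3%, against 26.8%). Smarca2, Smarcc2 and Arid1b were the risers. Shares of such short lists, here and below, were not tested. Smarca2 (Brm), the alternative ATPase, rose from 7.01 on day 0 through 8.26, 8.97, 9.60 and 10.37 to 10.46 on day 5, on 67 to 1205 reads. Every day was higher than the one before. The day 5 value was 10.9-fold that of day 0 (log2 difference 3.45, 95% exact binomial interval for counting error alone 3.09 to 3.83), with a slope of 0.69 ± 0.07 (SE, n = 6 libraries, limma adjusted p = 0.0022). Smarca4 (Brg1), the main ATPase of the ES cell complex, was at 12.89, 13.13, 13.26, 12.95, 12.94 and 13.08. It had no trend, with a slope of 0.0020 ± 0.037 (limma adjusted p = 0.969). Smarca2 lies on chromosome 19 (mm9, 26679649 to 26852811, plus strand) and Smarca4 on chromosome 9 (21420612 to 21507811, plus strand).

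The scaffold subunits Smarcc1 and Smarcc2, which pair with each other or with themselves at the base of the complex, went in opposite directions. The promoter windows of both, and that of Actl6a, which fell most among the BAF subunits, are shown so that the starts of a riser and of fallers can be compared. Each covers 250 bases before to 50 bases after a RefSeq gene start in GRCm38.p6, on the plus strand. Capitals mark GGGCGG (the GC box bound by Sp factors), CCAAT (bound by NF-Y) or AGGTCA (the hexamer of retinoic acid and other nuclear receptors), searched on both strands. Smarcc2 is at chr10:128458986-128459285, Smarcc1 at chr9:110131774-110132073 and Actl6a at chr3:32708296-32708595.
Smarcc2: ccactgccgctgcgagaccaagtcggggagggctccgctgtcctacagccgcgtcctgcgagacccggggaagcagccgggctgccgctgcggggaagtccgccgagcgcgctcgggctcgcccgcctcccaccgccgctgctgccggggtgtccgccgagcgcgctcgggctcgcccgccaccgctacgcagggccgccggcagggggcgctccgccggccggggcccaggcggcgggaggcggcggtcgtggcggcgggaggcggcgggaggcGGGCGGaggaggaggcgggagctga
Smarcc1: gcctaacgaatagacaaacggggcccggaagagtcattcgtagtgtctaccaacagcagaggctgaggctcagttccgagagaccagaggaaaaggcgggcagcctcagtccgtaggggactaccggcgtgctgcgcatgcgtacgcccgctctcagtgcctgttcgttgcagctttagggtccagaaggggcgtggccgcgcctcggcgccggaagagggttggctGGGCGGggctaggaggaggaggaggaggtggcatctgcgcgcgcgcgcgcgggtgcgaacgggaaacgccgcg
Actl6a: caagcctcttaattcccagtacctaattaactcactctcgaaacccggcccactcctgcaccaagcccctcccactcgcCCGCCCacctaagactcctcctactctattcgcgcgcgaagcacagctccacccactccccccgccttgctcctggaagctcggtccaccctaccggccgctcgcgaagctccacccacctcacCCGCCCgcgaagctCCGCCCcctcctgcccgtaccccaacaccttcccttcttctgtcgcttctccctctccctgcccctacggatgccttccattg
All the capitals in these windows belong to GC boxes: 1 in Smarcc2, 1 in Smarcc1 and 3 in Actl6a, the latter on the opposite strand. The Smarcc2 window has a GC content of 81.0% with 48 CpG, that of Smarcc1 66.0% with 33 and that of Actl6a 63.7% with 21.

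Smarcc2 (BAF170) rose from 9.23 to 10.14, 11.05, 10.92, 11.38 and 11.60 over days 0 to 5. Its day 5 value was 5.19-fold that of day 0 (log2 difference 2.38, interval 2.21 to 2.55), with a slope of 0.44 ± 0.07 (limma adjusted p = 0.0044). Smarcc1 (BAF155) stayed at 12.77 to 12.86 on days 0 to 2 and at 12.32 to 12.38 on days 3 to 5. The values of the later days lay below all of the earlier ones. This small fall (slope -0.11 ± 0.04, limma adjusted p = 0.0423) was called with all 6 libraries and without day 2, but not without any other single day (adjusted p 0.0566 without day 3 to 0.115 without day 4). Smarcc2 is on chromosome 10 (mm9, 127896291 to 127927230) and Smarcc1 on chromosome 9 (110034527 to 110142682).

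Actl6a (BAF53a), an actin-related subunit that the INO80 and TIP60 complexes also contain, fell at every step: 11.91, 11.39, 11.04, 10.51, 10.29 and 10.09. The day 5 value was 3.54-fold below that of day 0 (log2 difference -1.82, interval -1.94 to -1.71), with a slope of -0.37 ± 0.04 (limma adjusted p = 0.0022). Its neural paralog Actl6b had no listed transcript and so could not be analysed here. Smarcd1 (BAF60a) was at 11.71, 11.82 and 11.65 on days 0 to 2 and at 11.01, 10.85 and 10.84 on days 3 to 5. All 3 later days lay below all 3 earlier ones (slope -0.23 ± 0.05, limma adjusted p = 0.0086). Smarcd2 stayed between 9.68 and 10.08. Smarcd3 (BAF60c), a subunit known from heart and muscle, was under the filter. Its values were 7.71 on day 0, 5.48 on day 1, on 26 reads, and 6.65, 7.65, 7.85 and 8.43 afterwards, with day 1 the lowest.

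Among the ARID subunits that recruit BAF to DNA, Arid1b rose from 9.56 to 10.27 and 11.18 by day 2 and then stayed at 10.95, 11.12 and 11.17. It was 3.05-fold higher on day 5 than on day 0 (slope 0.30 ± 0.08, limma adjusted p = 0.0210), and the call was lost without day 0 (slope 0.17, adjusted p = 0.137), day 1 (0.0515) or day 4 (0.0579). Arid1a, its more abundant paralog, was at 13.40, 13.34, 13.15, 12.94, 12.98 and 13.02. This shallow fall (slope -0.092 ± 0.030, limma adjusted p = 0.0406) was lost without day 0 (adjusted p = 0.191), day 1 (0.101), day 2 (0.0528) or day 4 (0.115). Arid2, which marks the PBAF form, ran between 10.90 and 11.68 and was not called.

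Of the remaining BAF subunits, the core subunit Smarcb1 fell from 11.41 to 10.83 (slope -0.14, limma adjusted p = 0.0136), a call lost without day 0 (adjusted p = 0.0598) or day 4 (0.0573). Smarce1, an HMG-box subunit, was at 10.65 and 10.82 on days 0 and 1 and between 11.47 and 11.80 afterwards, and missed the threshold (slope 0.18, limma adjusted p = 0.0701). It was called without day 2 (adjusted p = 0.0089). Brd7, Brd9 and Dpf2 had slopes between -0.04 and 0.06 and were not called. The PHD-finger subunits Dpf3 and Dpf1 had fewer reads than Dpf2. Dpf3 went from 4.11, on 9 reads, to 6.99 with each day above the last. Dpf1 started at 8.68, on 214 reads, stood at 6.21 on day 2, on 42 reads, and ended at 8.17. Both lay below the filter. Of 8 tested BAF partners outside the symbol rule, 3 rose (Bcl7a by 0.32, Gltscr1 by 0.22 and Pbrm1 by 0.15 log2 units per day). Actb, actin itself, fell (-0.18). These shares of 37.5% and 12.5% stand against 25.7% and 26.8% of all genes. After length correction, Pbrm1 (slope 0.070, limma adjusted p = 0.125) and Actb (-0.14, 0.0659) were not called.

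In NuRD, 2 of 9 tested subunits rose (22.2%, against 25.7% of all genes) and 3 fell (33.3%, against 26.8%). Both risers were the scarcer of their pair per kilobase on day 0. Chd3 rose more than any other of the 55 tested genes. From 8.98 on day 0 it went to 9.39, 10.80, 11.49, 12.08 and 12.60, each day above the one before. The day 5 value was 12.4-fold that of day 0 (log2 difference 3.63, interval 3.45 to 3.81), with a slope of 0.77 ± 0.06 (limma adjusted p = 0.0018). Chd4, the main NuRD ATPase, was the most abundant remodeler gene per kilobase on day 0, at 11.21. Its read values were 13.91, 13.95, 13.99, 13.67, 13.63 and 13.69, with days 3 to 5 a little below days 0 to 2. It was not called (slope -0.07 ± 0.03, limma adjusted p = 0.0962), but it was called as falling after median-centring of the libraries (adjusted p = 0.0215) or after length correction (0.0069). Chd5, a paralog of neurons and testis that missed the filter, started at 9.07, stood at 9.93 on day 1 and ended at 6.97. Chd3 is on chromosome 11 (mm9, 69156774 to 69182928, minus strand) and Chd4 on chromosome 6 (125046180 to 125080519, plus strand).

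Mbd2 and Mbd3 define alternative forms of NuRD, of which the Mbd2 form binds methylated DNA. Mbd2 rose from 7.80 to 8.67, 9.54, 9.30, 9.90 and 10.01, a 4.62-fold increase (log2 difference 2.21, interval 1.93 to 2.50; slope 0.41 ± 0.07, limma adjusted p = 0.0056). Mbd3 was at 11.67, 11.98 and 11.51 on days 0 to 2 and at 10.99, 10.76 and 10.84 on days 3 to 5. It fell with a slope of -0.24 ± 0.05 (limma adjusted p = 0.0116), and no early day overlapped a late one. Of the scaffold subunits, Mta3 fell from 9.98 and 10.03 on days 0 and 1 to between 9.14 and 9.32 afterwards (limma adjusted p = 0.0226), a call lost without day 0 (adjusted p = 0.0962), day 1 (0.0528) or day 4 (0.0716). Mta1 ran between 10.66 and 11.53 and Mta2 between 11.31 and 11.57, neither of them called. Gatad2a (p66 alpha), which bridges the ATPase to the complex, fell from 12.23 and 12.25 on days 0 and 1 to 11.67 on day 5 (limma adjusted p = 0.0107), and its adjusted p was 0.05 without day 4. Gatad2b ran between 9.77 and 10.05 with a slope of -0.0028.

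Of 8 NuRD partners outside the rule, Rbbp7 (0.33 log2 units per day) and Hdac2 (0.11) rose. Sall4 (-0.63) and Sall1 (-0.53), zinc-finger proteins that recruit NuRD, Hdac1 (-0.21) and Rbbp4 (-0.13) fell. Rising were 25% of this list and falling 50%, against 25.7% and 26.8% of all genes. In both the histone-binding pair Rbbp4 and Rbbp7 and the deacetylase pair Hdac1 and Hdac2, then, the slopes of the paralogs had opposite signs.

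The balance of paralogs that fill the same position was then compared as a log2 ratio per kilobase, so that differences in transcript length do not enter the levels. Of 12 pairs listed, 10 could be tested, and the slope of the ratio on day had an exact permutation p under 0.05 (two-sided, all 720 orders of the 6 days) in 7. After Benjamini-Hochberg adjustment over the 10 pairs, 6 stayed under 0.05. The pairs were chosen with earlier results of these data known. How often ratios of other gene pairs pass was not tested. Among all genes tested singly, 25.7% rose and 26.8% fell, so ratios of unrelated genes may trend too. The Chd3 to Chd4 ratio went from -5.09 on day 0 to -4.72, -3.35, -2.34, -1.70 and -1.24, a 14.4-fold shift (slope 0.84 ± 0.07). Smarcc2 to Smarcc1 went from -3.34 to -2.44, -1.61, -1.23, -0.81 and -0.52 (7.06-fold, slope 0.55 ± 0.06). Mbd2 to Mbd3 went from -4.09 to -3.52, -2.19, -1.90, -1.08 and -1.05 (8.22-fold, slope 0.65 ± 0.08). These 3 ratios were higher on each day than on the day before, and each had the smallest p the 720 orders allow (exact permutation p = 0.00278, adjusted 0.0093). Smarca2 to Smarca4 went from -5.96 to -4.95, -4.36, -3.43, -2.64 and -2.70 (9.59-fold, slope 0.69 ± 0.08, exact permutation p = 0.00556, adjusted 0.0139). At the end of the course Smarca4, Chd4, Mbd3 and Smarcc1 were still above their paralogs per kilobase, Smarcc1 by 0.52 log2 units.

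The ratio of Arid1b to Arid1a went from -4.31 on day 0 to -2.44 on day 2 and then stayed between -2.46 and -2.32 (exact permutation p = 0.00833, adjusted 0.0139). Its p was 0.05, 0.0583 and 0.0667 in exact permutations without day 0, day 3 and day 4. The small change of Gatad2b to Gatad2a, from -0.89 to -0.33, had the same p (0.00833 by exact permutation), and 0.05 without day 0. Smarca1 to Smarca5 went from -4.14 to -5.05 on day 1 and up to -2.55 on day 5 (exact permutation p = 0.0361, adjusted 0.0516), and its p was between 0.0750 and 0.100 in exact permutations without day 2, 3, 4 or 5. Smarcd3 to Smarcd1 (exact permutation p = 0.106), Mta1 to Mta2 (0.217) and Brd3 to Brd2 (0.831) did not pass. Without day 0, the p of Smarcd3 to Smarcd1 was 0.0167 by exact permutation. Dpf3 to Dpf2 was not tested because Dpf3 had 9 reads on day 0, and the pair with Actl6b because Actl6b had no listed transcript.

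**Figure D3:**
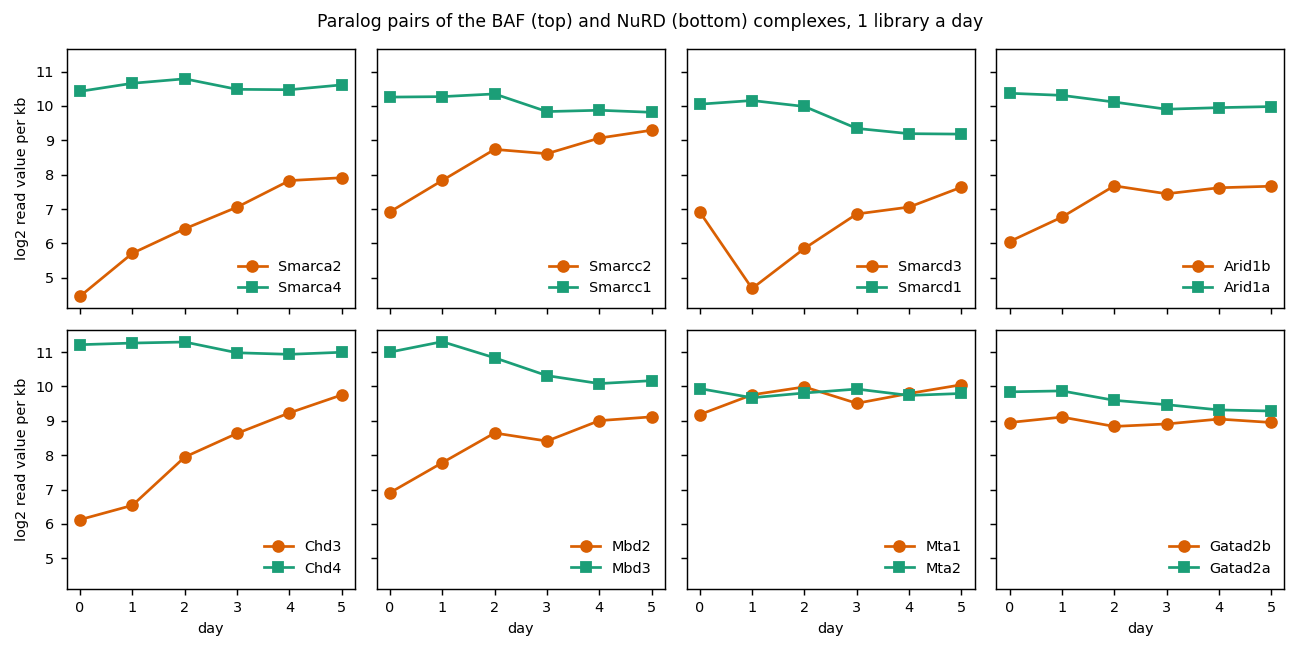
Log2 read value per kilobase on days 0 to 5 (1 library a day) of 8 paralog pairs of BAF (top) and NuRD (bottom), with the paralog of the numerator as orange circles and the other as green squares. The Smarca, Smarcc, Chd and Mbd pairs draw together over the course, to within 0.52 log2 units for Smarcc2 and Smarcc1 on day 5, while Mta1 and Mta2 cross.

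In the ISWI group, 1 of 6 tested genes rose and 1 fell (16.7% each, against 25.7% and 26.8% of all genes). Smarca5 (Snf2h), the main ISWI ATPase, was at 12.08, 12.33, 12.18, 11.93, 12.05 and 11.94 and was not called (slope -0.05 ± 0.03, limma adjusted p = 0.246). After length correction it was called as falling (adjusted p = 0.0238), as was Bptf, the large NURF subunit that reads histone methylation. Smarca1 (Snf2l), the paralog associated with differentiated cells, lay below the filter at 7.75, 7.09, 8.16, 8.76, 9.28 and 9.20, lowest on day 1 and 2.73-fold higher on day 5 than on day 0. Baz2b rose from 8.90 to 9.57 and 10.66 by day 2 and stayed at 10.52, 10.70 and 10.56 (slope 0.33 ± 0.09, limma adjusted p = 0.0231), a call lost without day 0 (slope 0.20, adjusted p = 0.154), day 1 (0.0604) or day 4 (0.0656). Its paralog Baz2a (Tip5), which silences ribosomal DNA, fell from 12.64 and 12.56 on days 0 and 1 to 11.85 on day 5 (limma adjusted p = 0.0239), lost without the same days (0.126, 0.0644 and 0.0614). Baz1a (Acf1) ran between 9.31 and 9.96 and Baz1b (Wstf) between 11.78 and 12.42, neither of them called. Of 7 ISWI partners outside the rule, Rbbp7 rose (14.3%, against 25.7% of all genes). Cecr2 (-0.29), Rbbp4 (-0.13) and Chrac1 (-0.099) fell (42.9%, against 26.8%). Chrac1 had a slope of -0.0067 after length correction (limma adjusted p = 0.882).

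Of the 7 other CHD genes, 1 rose (14.3%, against 25.7% of all genes) and none fell (against 26.8%). Chd1, which binds methylated histone H3 at active promoters, rose from 10.79 to 11.15, 11.41, 11.43, 11.77 and 11.50 (slope 0.15 ± 0.04, limma adjusted p = 0.0256). The call was lost after length correction (slope 0.074, adjusted p = 0.0904) and without day 0 (0.167), day 1 (0.0533) or day 4 (0.0842). Chd7, the gene mutated in CHARGE syndrome, was at 9.98 before treatment, at 11.41 and 11.45 on days 1 and 2, then at 10.84, 10.85 and 10.69. Days 1 and 2 stood above the rest, and the line was not called (slope 0.037 ± 0.11, limma adjusted p = 0.801), and without day 0 the slope was -0.20 (adjusted p = 0.0374). Chd8, which is known to bind beta-catenin, was at 12.24, 12.21, 11.81, 11.89, 11.93 and 11.88 and was called as falling after length correction (limma adjusted p = 0.0360), as was Chd9. Chd9 was also called as falling without day 3 (0.0358). Chd6 just missed the threshold (slope 0.13, limma adjusted p = 0.0506) and was called without day 2 (0.0331). Chd2 and Chd1l, a remodeler activated by poly(ADP-ribose), were not called.

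None of the 5 INO80 genes rose, against 25.7% of all genes, and 2 fell (40%, against 26.8%). Ino80, the ATPase, went from 10.86 to 10.64, 10.04, 9.70, 9.79 and 9.72, 2.20-fold lower on day 5 than on day 0 (slope -0.24 ± 0.05, limma adjusted p = 0.0101, and 0.0655 without day 0). Ino80e fell from 10.65 to 10.05, 9.24, 9.16, 8.99 and 8.92, a 3.32-fold decrease with each day below the one before (slope -0.34 ± 0.07, limma adjusted p = 0.0070). Ino80e overlaps Doc2a on the opposite strand by 274 nt, and no source used here gives the strand setting of the counting. Ino80b, Ino80c and Ino80d had slopes of -0.086, -0.08 and -0.10 and were not called. Of 20 tested partners from the INO80, SRCAP and TIP60 complexes, none rose and 7 fell (35%, against 26.8% of all genes). The steepest were the AAA+ ATPases Ruvbl2 (-0.44) and Ruvbl1 (-0.43), which these complexes share, and Znhit1 (-0.29). Actl6a, also shared by INO80 and TIP60, fell as described above.

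Among SNF2-type ATPases outside those complexes, Smarcad1, which helps to keep heterochromatin silent after replication, fell from 12.42 to 11.78, 11.48, 11.29, 11.31 and 11.12. The day 5 value was 2.45-fold below day 0 (slope -0.23 ± 0.05, limma adjusted p = 0.0090). The step to day 1 alone was -0.64, and without day 0 the slope was -0.15 (limma adjusted p = 0.0455). Smarcal1, which remodels stalled replication forks, ran between 9.43 and 9.73 and was called as falling after length correction. Of 9 further SNF2 genes outside the rule, none rose (against 25.7% of all genes) and 4 fell (44.4%, against 26.8%). Hells (Lsh), a remodeler needed for DNA methylation, was at -0.44, Ttf2 at -0.32 and Rad54l at -0.26 log2 units per day.

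None of the 5 genes of the BET and other bromodomain group was called, against 25.7% rising and 26.8% falling among all genes. Brd2, a BET protein that binds acetylated histones, varied least, between 12.25 and 12.36 on days 0 to 5. Brd3 ran between 11.24 and 11.72 and Brd1, of the HBO1 acetyltransferase complex, between 10.63 and 11.04. Brd8, a TIP60 subunit, ran between 10.92 and 11.34 and overlaps Kif20a on the opposite strand by 188 nt.

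Of the 5 other ARID genes, 1 rose and 1 fell (20% each, against 25.7% and 26.8% of all genes). Arid3b fell after an initial high: 10.49, 10.84, 10.51, 9.68, 9.40 and 8.83 (slope -0.38 ± 0.07, limma adjusted p = 0.0058). Its paralog Arid3a, which takes part in trophectoderm and B cell gene regulation, went from 8.05 to 8.60, 9.67, 9.79, 9.64 and 9.39. It just missed the threshold (slope 0.28 ± 0.10, limma adjusted p = 0.0514) and was called without day 2 (0.0275) or day 5 (0.0218). Arid4b, a subunit associated with the Sin3 corepressor, rose from 9.01 to 9.59, 10.20, 10.08, 10.59 and 10.41 (slope 0.28 ± 0.06, limma adjusted p = 0.0099, and 0.0632 without day 0), whereas Arid4a ran between 8.84 and 9.22 and was not called. Arid5b, a partner of the histone demethylase Phf2, was at 10.93 before treatment, at 8.97 a day later and then at 9.71, 10.34, 10.69 and 10.52, lowest on day 1. The line was not called (slope 0.11 ± 0.15, limma adjusted p = 0.566), but without day 0 the slope was 0.41 (adjusted p = 0.0224).

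Only Mbd6 of the other methyl-CpG-binding family lay above the filter. It rose from 9.48 to 10.50, 10.56, 10.63, 10.65 and 10.92, with the widest step to day 1 (slope 0.22 ± 0.07, limma adjusted p = 0.0296), a call lost without day 0 (slope 0.092, adjusted p = 0.138), day 3 (0.0534), day 4 (0.0616) or day 5 (0.0717). Mbd5, its relative, went from 7.25 to 9.32 and Mbd1 from 7.09 to 8.79 below the filter. Mbd4, a DNA glycosylase, went from 9.12 to 8.26. With a filter at the 20th percentile, Mbd5 (0.36 log2 units per day), Mbd1 (0.31) and the ISWI ATPase Smarca1 (0.41) were called as rising, and Mbd4 (-0.19) and the NuRD paralog Chd5 (-0.58) as falling. The main filter used the mean over all 7 libraries, so that genes low on day 6 were more likely to fall under it.

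The timing of the changes was read from the largest single daily step of each called gene. The largest single daily step of the risers was the step to day 1 for 5 (Chd1, Mbd2, Mbd6, Smarca2 and Smarcc2) and to day 2 for 4 (Arid1b, Arid4b, Baz2b and Chd3). Among all 1858 rising genes the step to day 1 was largest for 29.0% and that to day 2 for 46.9%. Of the 13 fallers, 2 took their largest step to day 1 (Actl6a and Smarcad1), 6 to day 2 and 5 to day 3 (Arid1a, Arid3b, Mbd3, Smarcc1 and Smarcd1). Among all falling genes 11.0%, 60.6% and 19.2% did so. No remodeler gene that was called took its largest step to day 4 or day 5. Some of these steps were close to ties: Mbd2 took 0.87 to each of days 1 and 2, Smarcc2 took 0.91 and 0.90, Chd1 took 0.36 to day 1 and 0.35 to day 4, and Actl6a took -0.53 to each of days 1 and 3. The counts rest on single steps between single libraries and were not tested.

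On day 1, 3 of the 55 genes were at least 2-fold above day 0 (5.45%, against 6.06% of all genes): Chd7 at 2.70-fold, Smarca2 at 2.38-fold and Mbd6 at 2.03-fold. Only Arid5b was at least 2-fold lower (1.82%, against 1.96% of all genes), at 3.89-fold. Below the filter, Smarcd3 and Dpf1 differed from day 0 by -2.23 and -1.26 log2 units and Mbd5 by 1.07. A curved course was tested as a day-squared term. No remodeler gene passed an adjusted p of 0.05, against 0.0414% (3) of all genes. Arid3a (adjusted p = 0.0995), Baz2b (0.119) and Smarca2 (0.134) had the smallest p of the curved term by limma, all with a negative sign, that is, steeper early than late.

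**Figure D4:**
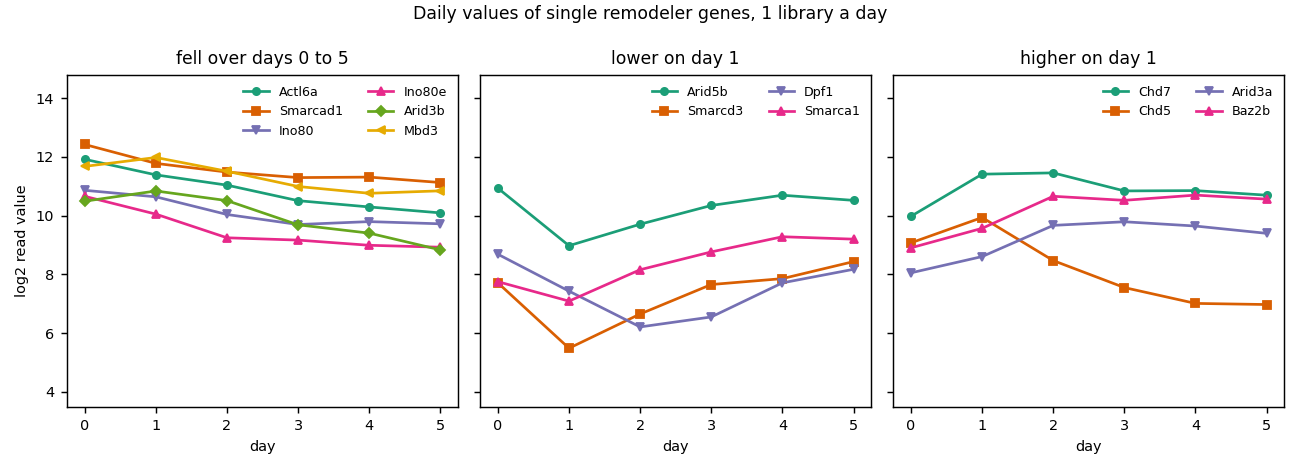
Log2 read values on days 0 to 5 (1 library a day) of single remodeler genes: 6 that fell, 4 that were lower on day 1 than on day 0, and 4 that were higher on day 1. Arid5b is at 8.97 on day 1 and at 10.52 on day 5, and Chd7 is at 11.45 on day 2.

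Transcripts of the same gene mostly share reads and gave nearly the same courses. Of the 63 genes, 11 had more than 1 transcript in the table. For Smarca2, a short transcript of 1971 nt that starts inside the gene (NM_026003, mm9 chromosome 19, 26822892 to 26852811) went from 3.75, on 7 reads, to 5.64, 6.95, 7.71, 8.53 and 8.77. The long transcript of 5846 nt (NM_011416) is the one described above. No source used here says how reads in shared exons were assigned.

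The promoter windows of the group were compared with all RefSeq windows of the same length. Of the 46 remodeler genes with a window, 37 had one within 100 nt of the annotated start, and those 37 were used. The hexamer AGGTCA was present on either strand in 3 of them (8.11%; Baz1b, Baz2b and Dpf3), against 16.3% of 32841 windows. GGGCGG was present in 30 (81.1%), against 35.7%, and CCAAT in 14 (37.8%), against 37.4%. The windows had a median of 25 CpG and a GC content of 63.7%, against 7 and 52.7%. Unlike those 37, the 32841 windows were not limited to genes measured here or to windows near an annotated start. Whether windows of other expressed genes, chosen in the same way, differ from those of the remodeler genes was not tested. The differences in motifs, CpG and GC content therefore cannot be read as particular to remodeler genes. A match says only that these letters are in the window.

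On day 6 most remodeler genes had much lower read values than on day 5. Of the 55, 37 were at least 2-fold lower (67.3%, against 51.7% of all genes) and 3 at least 2-fold higher (5.45%, against 18.6%): Ino80b, Baz1a and Smarcb1. The median difference was -2.51 for the remodeler genes and -1.11 for all genes. The difference went with transcript length, with a Spearman rho of -0.78 over 7242 genes and -0.67 over the 55, as descriptions. Ino80d, the longest of the 55 at 13450 nt, was at 10.58 on day 5 and at 3.78, on 5 reads, on day 6. The BAF subunits Arid1a (8195 nt) went from 13.02 to 7.82 and Smarcb1 (1639 nt) from 10.83 to 11.84. When the trend with length was removed, 9 of the 55 were higher and 9 lower by 2-fold or more. The shares of all genes after that step were not computed.

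Some genes lay off that trend, and how widely all genes spread about it was not computed. Ino80d itself was at -3.13 from the trend, Arid5b at -2.35 and Arid1a at -1.89. Ino80 was at 2.39 and Chd6 at 2.35. Baz1a (6206 nt) was 1.14 log2 units higher on day 6 than on day 5, or 4.15 above the length trend, and Smarcal1 (6731 nt) 0.59 higher, or 3.70 above it. Gatad2b (1916 nt as listed) differed by -3.91, or by -4.09 from the trend. Of the paralog ratios, Chd3 to Chd4 was at -1.13 on day 6 against -1.24 on day 5, and Smarcc2 to Smarcc1 at -0.49 against -0.52. Those of Smarca2 to Smarca4 (-2.24 against -2.70) and Arid1b to Arid1a (-0.78 against -2.32) were higher on day 6. Those of Mbd2 to Mbd3 (-1.99 against -1.05) and Gatad2b to Gatad2a (-1.23 against -0.33) were lower. The Gatad2b to Gatad2a ratio then lay below its day 0 value of -0.89. With 1 library, the length dependence and the sixth day cannot be told apart.

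**Figure D5:**
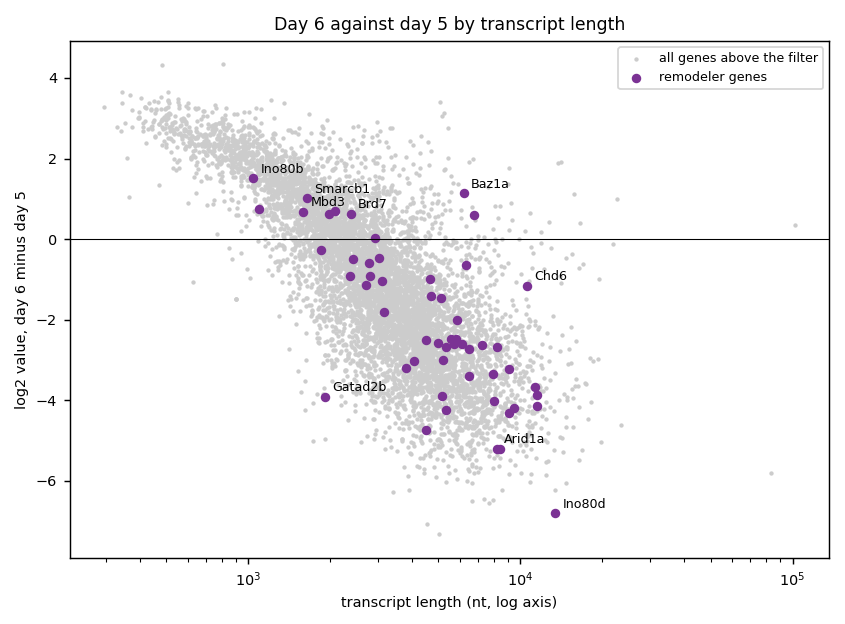
Log2 read value on day 6 minus that on day 5 (vertical) against transcript length in nt (horizontal, log axis) for the 7242 genes above the filter (grey) and 54 of the remodeler genes among them (purple). The long Ino80d lies lowest of the purple points at -6.80, while Baz1a, at 1.14, lies well above genes of its length.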

How the data were processed

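RNA was sequenced in 7 libraries, 1 for each of days 0 to 6. Per the labels' protocols, libraries were stranded and made from Trizol RNA after DNase treatment and removal of ribosomal RNA. The submitters' processing notes name BWA 0.7.3 and mm9. No source used here gives the counting tool, its strand setting or the scaling. The table deposited by the authors holds log2 values for 15296 transcripts. Raised from the log, they are whole multiples of 1 step per library, from which reads were recovered. The authors' transcript lengths, mm9 positions and symbols come from the same table.

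Per symbol the transcript with the highest mean was used, and genes with a mean log2 value above the 40th percentile were kept. A line on day over days 0 to 5 was fitted with limma 3.58.1 (R 4.3.3), whose empirical Bayes step used the mean trend. It had 4 residual degrees of freedom, and p-values were adjusted over all 7242 genes kept (Benjamini-Hochberg). Both fits were run on simulated counts with independent scatter, in which a few genes had straight slopes and the rest were flat. No simulated gene was curved, so what the curved fit can detect was not tested. In the real data far more genes were called than were given a slope in the simulation. Paralog ratios were tested by exact permutation of the days where every library held at least 20 reads of both genes. Single days were compared by size, at 2-fold, with exact binomial (Clopper-Pearson) 95% intervals that cover counting error only. For length correction, a lowess curve on log length (span 0.3) was removed from each library. Alternatives were filters, scalings, a pseudocount of 64, summed transcripts and leaving out each library. The daily values printed are those of the 8 largest slopes each way, the 3 smallest p of the curved term, both genes of each pair and the main ATPases, with further genes given by range or chosen after their values were seen. The genes, lists and pairs were chosen with earlier results of these data known. Of the 63 genes, 1 enters the counts but is not reported here.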

Additional observations from a re-analysis of the deposited data

How the results depend on the processing

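Over all 7 libraries, day 6 included, 0 remodeler genes were called as rising and 0 as falling by limma, against 116 and 274 of all 7242 genes. Of the 55 slopes, 21 changed sign, among them those of 5 of the 9 risers: Baz2b (-0.18), Arid1b (-0.16), Arid4b (-0.057), Mbd6 (-0.14) and Chd1 (-0.25). The slope of Chd7 ran from -0.20 without day 0 to 0.12 without day 5. Leaving out 1 library gave 5 to 12 risers and 7 to 13 fallers, against 1038 to 2005 and 1240 to 1960 over all genes. Length correction gave 20 fallers, median-centring 9 risers and 16 fallers, the 20th percentile filter 12 and 15, and no filter 13 and 15. Over all genes, length correction gave 1915 fallers and median-centring 1622 risers and 2348 fallers. The 20th percentile filter gave 2485 and 2275 of 9656 genes, and no filter 3132 and 2662 of 12071. Arid1a and Smarcc1 lost their calls under quantile normalization and without a mean trend. On day 1, 1 gene was at least 2-fold higher under quantile normalization, length correction or the pseudocount. With no filter or the 20th percentile filter, 4 were higher and 3 lower. On day 6, 10 genes were at least 2-fold higher after median-centring, 8 after quantile normalization and 9 after length correction, which left 9 lower. For these single-day alternatives the shares of all genes were not computed. The cause of these shifts was not tested, apart from the wider filters, which admit more genes. Of 480 alternative slopes of 32 named genes, 420 stayed on their side of the threshold, 48 lost the call, 6 gained one and 6 changed sign with a call in either fit. Counting uncalled slopes too, 27 changed sign. The wider filters and the fit without a mean trend leave each slope unchanged and can alter only its p. Summing leaves the values of a gene with 1 transcript unchanged. The 480 are therefore not independent checks. Of 100 alternatives of the paralog ratios, 89 stayed, 9 lost and 2 gained a p under 0.05. No paired analysis was possible because each day has 1 library. Depth limits genes with few reads, such as Dpf3 on day 0 and Ino80d on day 6, and no spread between cultures was measured.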
